A study of Mus with 10 samples.

Results

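The genes described here present peptide antigens to T cells. The list named 10 genes, chosen by name with earlier results of these data known: H2-Aa, H2-Ab1, H2-Eb1, H2-DMa, Cd74, Ciita, B2m, Tap1, Tap2 and Psmb8. Of these, 9 were measured by a probe set with 1 gene symbol, out of 22180 genes so measured. The probe set of Cd74, which encodes the invariant chain, is listed with a second gene, and Cd74 was not analysed here. The samples were skin of female BALB/c mice aged 7 to 8 weeks, on 10 Affymetrix arrays that gave 1 log2 value per probe set. There were 2 control arrays, 4 arrays labelled PUVA 3D and 4 labelled PUVA 7D. PUVA is a topical psoralen, a DNA crosslinker activated by light, followed by UVA light, here 0.25 J/cm2 given 2 times a week for 2 weeks. The stated gap between PUVA and imiquimod, a cream that brings on skin inflammation resembling psoriasis, was 3 days (3-day group) or 7 days (7-day group). Controls are described only as having no gap. Imiquimod treatment of the arrayed skin is not stated for any group, nor is what else the controls had been given. Separate animals are not stated either, and p-values reflect sample-to-sample spread that could be technical.

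MHC class II molecules show peptides from engulfed material to CD4+ T cells. They are made by dendritic cells, Langerhans cells of the epidermis, macrophages and B cells, and Ciita is the coactivator that switches their genes on. MHC class I molecules are on nearly all nucleated cells and show peptides from inside the cell to CD8+ T cells. The immunoproteasome cuts these peptides and the TAP transporter carries them into the endoplasmic reticulum. Interferon-gamma raises both sets of genes. In the RefSeq gene order (assembly GRCm38.p6) H2-DMa, Tap1, Psmb8, Tap2, H2-Ab1, H2-Aa and H2-Eb1 lie within a run of 11 neighbouring protein-coding genes, the MHC class II region. B2m and Ciita lie outside it.

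Skin markers were high on every array, with a mean of 7 keratinocyte markers between log2 values of 11.37 and 11.71. The controls stood apart from each other in hair genes, where the mean of 7 hair follicle markers was 6.17 in control replicate 1 and 8.92 in control replicate 2. On the 8 PUVA arrays that mean ran from 4.61 to 5.07. Results of the 9 members, the lists and the leading named genes against control are therefore also given without each control.

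No change in the antigen presentation genes passed the test. None of the 9 passed an adjusted p of 0.05 in any comparison, in limma with Benjamini-Hochberg adjustment over all genes, and none had an unadjusted p under 0.05. Their log2 changes lay between -0.16 and 0.16. For each of the 9 the group means differed by less than the widest spread of arrays within a group. A range of single arrays tends to exceed a difference of means, so this says little about these genes. The share over all genes is not given here. Few genes passed at all: 0.00451% of all genes were lower and 0% higher in the 3-day group against control, and 0% in the 7-day group against control in each direction. Between the PUVA groups 0.00451% passed in each direction. Without control replicate 1, the median log2 change of the 9 members was 0.09 in the 3-day and 0.03 in the 7-day comparison with control. At an unadjusted p under 0.05 the shares of all genes were 9.74%, 5.89% and 9.77% in the 3-day, the 7-day and the direct comparison, against 0 of 9 members each time. Whole skin was measured, and fewer cells of a type cannot be told apart from less RNA per cell.

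**Figure D1:**
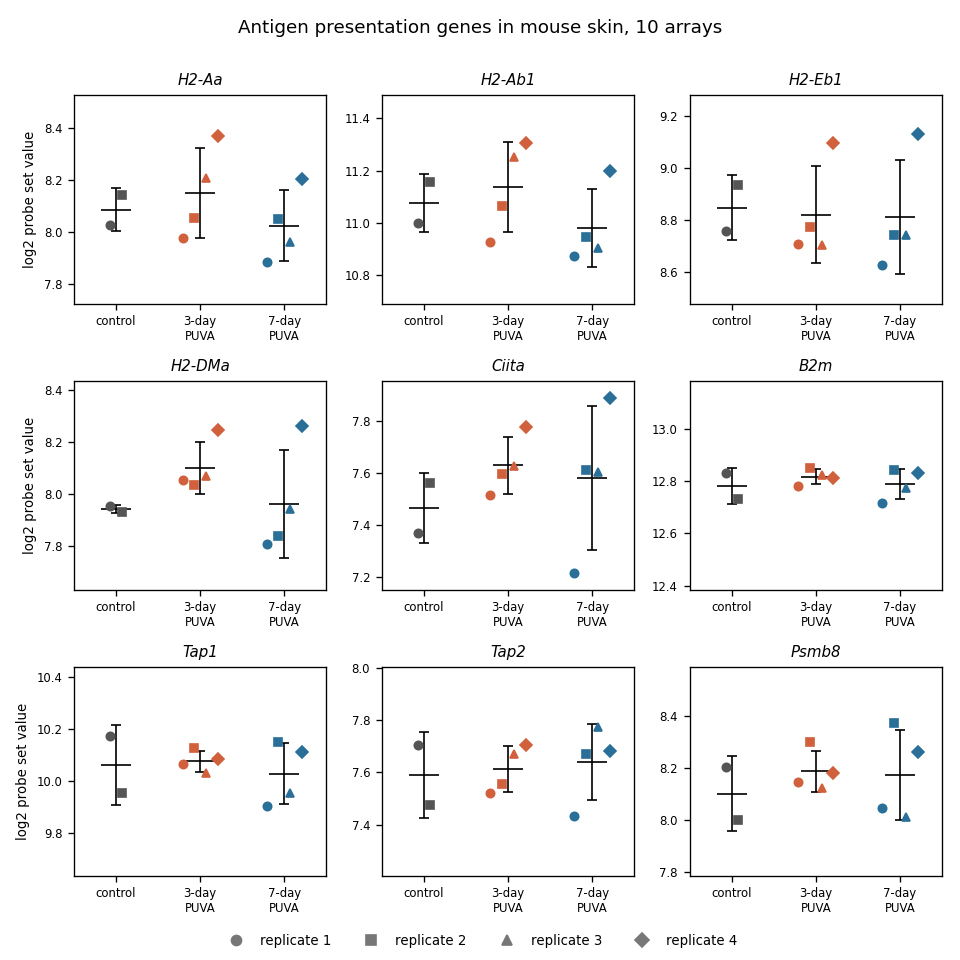
Log2 probe set values of the 9 measured antigen presentation genes on 10 arrays, by group (2 control, 4 with the 3-day gap, 4 with the 7-day gap). Symbols mark replicates, horizontal bars the group mean and error bars 1 SD; each panel spans the same log2 range. The groups overlap in every panel except H2-DMa, where the 3-day arrays lie above both controls.

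The classical class II chains were followed first. H2-Aa, the alpha chain of I-A, had log2 values of 8.03 and 8.14 in control, 7.98, 8.05, 8.21 and 8.37 on 3-day replicates 1 to 4, and 7.88, 8.05, 7.96 and 8.20 on 7-day replicates 1 to 4. H2-Ab1, its beta chain partner, had 11.00 and 11.15 in control, 10.93, 11.07, 11.25 and 11.31 in the 3-day group, and 10.87, 10.94, 10.90 and 11.20 in the 7-day group. Both chains were highest on 3-day replicate 4 and lowest on 7-day replicate 1, and the groups overlapped. Their log2 changes in the 3-day group against control were 0.06 ± 0.12 (SE) for H2-Aa and 0.06 ± 0.13 for H2-Ab1, with limma adjusted p of 0.912 and 0.921. In the 7-day group they were -0.06 ± 0.12 and -0.10 ± 0.13, with adjusted p of 0.977 and 0.971.

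H2-Eb1, the beta chain of the second class II molecule I-E, had log2 values of 8.76 and 8.94 in control. It had 8.71, 8.77, 8.70 and 9.10 on the 3-day arrays and 8.63, 8.74, 8.74 and 9.13 on the 7-day arrays. The high value was replicate 4 in each PUVA group, and the other 3 arrays of each group lay below the controls' mean of 8.85. Group means were 8.82 ± 0.19 (SD, n = 4) and 8.81 ± 0.22 (SD, n = 4), with log2 changes of -0.03 ± 0.15 and -0.04 ± 0.15 (SE) against control. H2-Ea, the alpha chain of I-E and no member of the list, had group means of 11.34 (control), 11.34 (3-day) and 11.24 (7-day).

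H2-DMa, a chain of the DM molecule that loads peptides onto class II, had log2 values of 7.95 and 7.93 in control. It had 8.05, 8.03, 8.07 and 8.25 on the 3-day arrays and 7.81, 7.84, 7.94 and 8.26 on the 7-day arrays. All 4 of the 3-day arrays lay above both controls, while the groups of the other 8 members overlapped in each comparison. Of all genes, 17.4% did not overlap with control in either direction, so 1 of 9 members is near the background. Against control, 14.4% of all genes and 0 of 9 members did not overlap in the 7-day group, and between the PUVA groups 5.23% and 0 of 9. Its log2 change was 0.16 ± 0.12 (SE), with a limma adjusted p of 0.743. In the 7-day group it was 0.02 ± 0.12, with arrays on both sides of the controls.

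Ciita had the largest spread of all members. Its log2 values were 7.37 and 7.56 in control, 7.52, 7.60, 7.63 and 7.78 on the 3-day arrays, and 7.22, 7.61, 7.60 and 7.89 on the 7-day arrays. The highest and the lowest value of all 10 arrays both fell in the 7-day group, 0.67 apart, while the group means spanned 0.16. Its log2 changes against control were 0.16 ± 0.16 (SE) in the 3-day group and 0.11 ± 0.16 in the 7-day group, with limma adjusted p of 0.797 and 0.971.

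The class I pathway genes were followed next. B2m, beta-2-microglobulin, the light chain of every class I molecule, had log2 values of 12.83 and 12.73 in control, 12.78, 12.85, 12.82 and 12.81 in the 3-day group, and 12.72, 12.84, 12.77 and 12.83 in the 7-day group. All 10 arrays lay within 0.14. Its log2 changes were 0.04 ± 0.07 (SE) in the 3-day group and 0.01 ± 0.07 in the 7-day group against control, and the 95% intervals ended at 0.20 and 0.17.

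Tap1, a subunit of the TAP transporter, had log2 values of 10.17 and 9.95 in control, 10.07, 10.13, 10.03 and 10.08 in the 3-day group, and 9.90, 10.15, 9.95 and 10.11 in the 7-day group. Tap2, the second subunit, had 7.71 and 7.47 in control, 7.52, 7.55, 7.67 and 7.71 in the 3-day group, and 7.43, 7.67, 7.77 and 7.68 in the 7-day group. For Tap1 the 3-day arrays all lay between the controls, and for Tap2 the 3-day arrays reached from inside the controls' range to just level with control replicate 1. The log2 changes of Tap1 were 0.01 ± 0.10 (SE) and -0.03 ± 0.10 in the 3-day group and the 7-day group, and those of Tap2 were 0.02 ± 0.11 and 0.05 ± 0.11.

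Psmb8, the immunoproteasome subunit that replaces Psmb5, had log2 values of 8.21 and 8.00 in control. It had 8.15, 8.30, 8.12 and 8.18 on the 3-day arrays and 8.05, 8.38, 8.01 and 8.26 on the 7-day arrays. Its highest value in each PUVA group was replicate 2, and the groups overlapped. Its log2 changes were 0.09 ± 0.12 (SE) and 0.07 ± 0.12 against control, with limma adjusted p of 0.869 and 0.973.

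Across the 9 members the median log2 change was 0.06 in the 3-day group against control, with 8 members above 0, where 50.6% of all genes lay above 0 and their median was 0.0023. In the 7-day group the median was 0.0091 with 5 members above 0, where 55% of all genes lay above 0 and their median was 0.015. Between the PUVA groups directly, 7-day against 3-day, 1 of 9 members lay above 0 (Tap2), where 53.2% of all genes did, and the median was -0.05. The 3 comparisons share arrays and the members vary together, so these directions are not separate observations. In that comparison H2-Ab1 had the largest difference, -0.16 ± 0.10 (SE, adjusted p = 0.653 in limma), followed by H2-DMa at -0.14 ± 0.10 and H2-Aa at -0.13 ± 0.10.

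**Figure D2:**
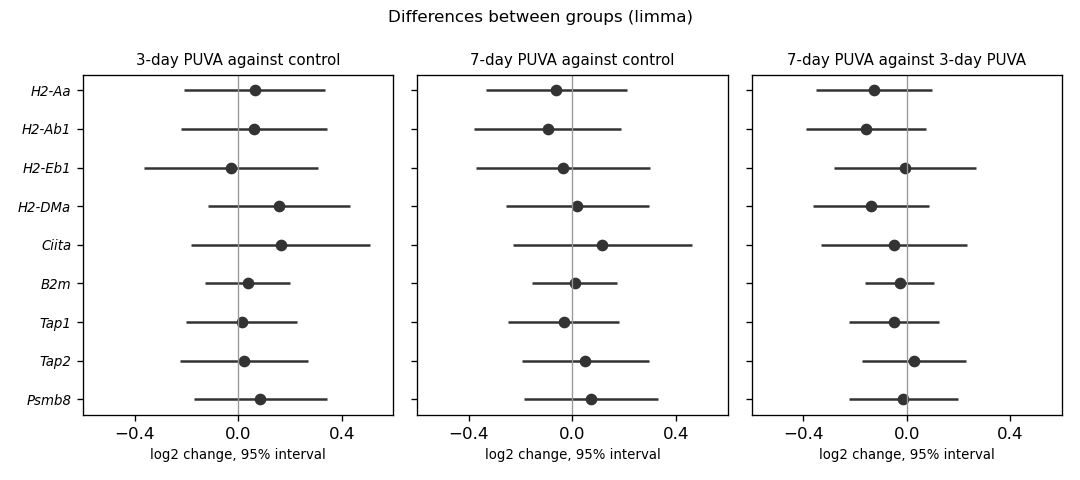
Log2 changes of the 9 genes in the 3 comparisons, with points for the limma estimate over 10 arrays and lines for its 95% interval. Every interval includes 0, and none reaches past 0.51 on either side.

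The 95% intervals give the range of changes these arrays leave possible. The farthest bound of any member was a log2 change of 0.51 (1.42-fold) in the 3-day group against control, for Ciita. It was 0.46 (1.38-fold) in the 7-day group, also for Ciita, and 0.39 (1.31-fold) between the PUVA groups, for H2-Ab1. The bounds do not show that the groups were alike. The fit takes 1 spread per gene over all groups, and 2 controls say little about their own spread.

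Leaving out 1 array moved single genes, and none of the 9 passed. The median log2 change in the 3-day group was 0.09 without control replicate 1 and 0.06 without control replicate 2. In the 7-day group it was 0.03 and -0.02. Treated arrays moved the medians as well. The 7-day median was -0.06 without 7-day replicate 4 and -0.0084 without 7-day replicate 2, and the 3-day median was 0.01 without 3-day replicate 4 and 0.10 without 3-day replicate 1. The median of the direct comparison was -0.11 without 7-day replicate 4 and -0.0023 without 7-day replicate 1. The class I genes and the class II genes other than H2-DMa moved opposite ways with the choice of control. Without control replicate 1, Psmb8 had 0.19 and Tap2 0.14 in the 3-day group, and without control replicate 2 they had -0.02 and -0.09. Ciita had 0.07 without control replicate 1 and 0.26 without control replicate 2, and H2-Ab1 had -0.02 and 0.14.

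In the widest group of each gene, single arrays lay farther apart than the group means did, and this variation was in part shared among genes. On 3-day replicate 4 and on 7-day replicate 4 all 5 class II genes (H2-Aa, H2-Ab1, H2-Eb1, H2-DMa and Ciita) had the highest value of their group. On 7-day replicate 1 all 5 had the lowest. The mean of the 5 was 8.96 and 8.94 on those replicates 4, against 8.64 to 8.77 on the other 3-day arrays and 8.48 to 8.64 on the other 7-day arrays. The controls lay at 8.62 and 8.74.

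Of the 4 class I pathway genes, 3 (B2m, Tap1 and Psmb8) had their group's highest value on replicate 2 of both PUVA groups. A shared replicate number links nothing between groups. In control, all 4 class I genes were higher on replicate 1, and 4 of the 5 class II genes, all but H2-DMa, were higher on replicate 2. The 4 class I genes had means of 9.73 and 9.54 on the controls, 9.63 to 9.71 on the 3-day arrays and 9.53 to 9.76 on the 7-day arrays.

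**Figure D3:**
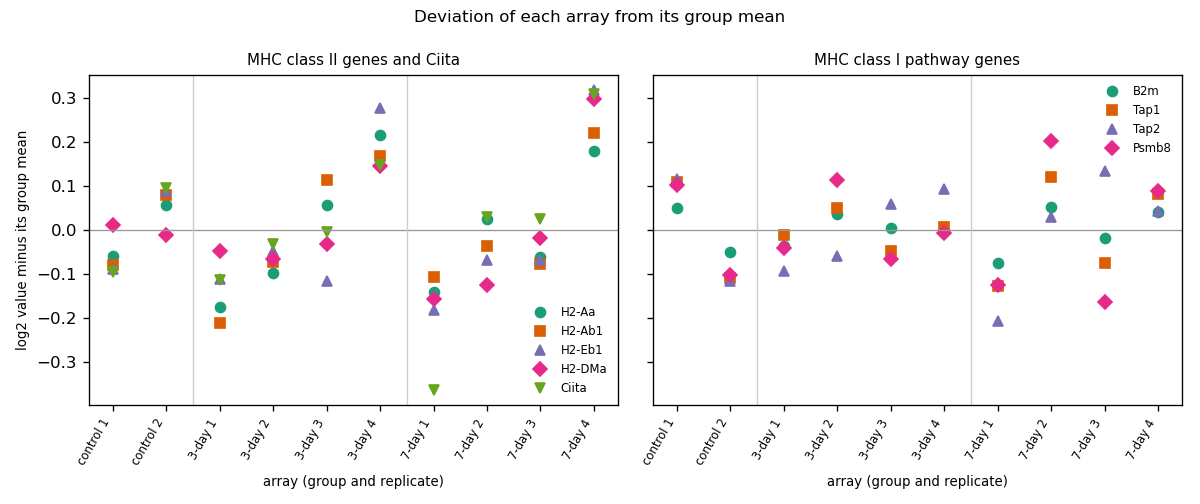
Log2 value of each gene minus its own group mean, by array, for 5 MHC class II genes (left) and 4 MHC class I pathway genes (right); vertical lines part the groups. The class II genes all lie above 0 on replicate 4 of both PUVA groups, and the 2 controls mirror each other because they are set against their own mean.

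As a description over the 10 arrays, which share their processing, Pearson correlations of the 10 class II pairs ran from 0.68 to 0.96 with a median of 0.77. Those of the 6 class I pairs ran from 0.27 to 0.90 with a median of 0.72. The 20 pairs of a class II with a class I gene ran from 0.09 to 0.52 with a median of 0.31. Spearman medians were 0.67, 0.64 and 0.33. With group means removed, the medians were 0.82, 0.76 and 0.29. H2-Aa and H2-Ab1, the chains of one molecule, had the highest correlation, 0.96 (Spearman 0.99). Tap2 went with Tap1 at 0.44 and with Psmb8 at 0.27, and these 3 are close neighbours in the genome.

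Part of this rested on single arrays. Without 3-day replicate 4 and 7-day replicate 4, the arrays farthest from the median of the class II mean, the class II pairs ran from 0.11 to 0.95 over 8 arrays with a median of 0.50. H2-Aa with H2-Ab1 stayed at 0.95, while H2-Eb1 with H2-DMa fell from 0.77 to 0.11. Without 7-day replicate 1 and control replicate 2, the corresponding arrays for class I, the class I pairs had a median of 0.31. B2m, Tap1 and Psmb8 still had 0.77 to 0.85 among themselves, and the pairs with Tap2 had -0.16, -0.29 and -0.35.

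The gene outside the list most like the mean of H2-Aa, H2-Ab1 and H2-Eb1 over the 10 arrays was H2-Ea, with a Pearson correlation of 0.91 among 17421 candidates. Its log2 values ran from 11.10 to 11.53. Next came Foxp3, the transcription factor of regulatory T cells, at 0.89, Slamf7, a receptor of leukocytes, at 0.89, Septin1, a cytoskeletal GTP-binding protein, at 0.89, and the chemokine receptor gene Ccr6 at 0.88. Foxp3 was highest on 3-day replicate 4 at 7.07 and second on 7-day replicate 4 at 6.97. It was picked for its likeness, so this is no separate observation. Without the 2 arrays farthest from the median of that mean, the 5 correlations were 0.87 for H2-Ea and 0.72 to 0.78 for the others. For the mean of B2m, Tap1, Tap2 and Psmb8 the likest were Sycp1-ps1, Svs5, Exoc3l, Ptcra and Platr26, at 0.86 to 0.88, and at 0.61 to 0.76 without the 2 arrays farthest from the median of that mean. Sycp1-ps1, at 2.37 to 2.83, and Svs5, at 3.02 to 3.42, were under the 10 arrays' lower quartiles (4.17 to 4.23). All these genes were picked as the likest of 17421 over 10 arrays, and whether chance alone gives correlations as high was not tested.

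Other genes of the pathway were taken from 6 fixed lists with 61 of 67 genes measured, and none passed an adjusted p of 0.05 in limma in any comparison, in either direction. H2-D1, H2-L, H2-Q6, H2-Q7 and Psma4 were among those not analysed here. At an unadjusted p under 0.05, 7 of the 61 were higher and 1 lower in the 3-day group against control, where 5.67% and 4.07% of all genes were. With either control left out fewer of them were higher at that level, and few were lower. The 7-day group had 1 higher and 1 lower, against 3.21% and 2.68%, and in the 7-day against the 3-day group 1 was higher and 3 lower, against 5.33% and 4.43%.

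Among 15 other class II genes the median log2 change was 0.17 in the 3-day group, with 12 above 0, and 0.05 in the 7-day group, with 8 above 0. H2-DMb1 and H2-DMb2, beta chains of the DM molecule, had 0.42 ± 0.19 and 0.37 ± 0.17 (SE) in the 3-day group, with limma adjusted p of 0.508 and 0.506. H2-DMb2 values were 6.95 and 7.26 in control and 7.13, 7.67, 7.41 and 7.69 on the 3-day arrays, so the groups overlapped. H2-DMb1 was dimmer, at 3.98 and 4.63 in control and 4.58, 4.59, 4.67 and 5.03 on the 3-day arrays. Its value on control replicate 1 lay below the arrays' lower quartiles (4.17 to 4.23). H2-DMb1 and H2-DMb2 are near-identical copies whose probe sets may share signal. H2-Eb2, a beta chain gene related to H2-Eb1, had 0.20 ± 0.09 in the 3-day group and -0.26 ± 0.07 in the 7-day against the 3-day group, with adjusted p of 0.502 and 0.301. Its values of 3.99 to 4.43 lay about the lower quartile of the arrays, and signal over background was not analysed here.

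Ctss, the cathepsin that trims the invariant chain, had log2 changes of 0.29 ± 0.19 and 0.19 ± 0.19 (SE) in the 3-day group and the 7-day group. Rfx5, a subunit of the RFX factor to which Ciita binds, had -0.05 ± 0.08 and -0.15 ± 0.08, and its 7-day arrays, at 8.06 to 8.18, all lay below the controls at 8.22 and 8.31. The limma adjusted p for that was 0.887. The lysosomal proteases Lgmn and Ctsb had -0.36 ± 0.20 and -0.12 ± 0.07 in the 7-day against the 3-day group, with overlapping arrays. Ctsl had 0.13 ± 0.09 in the 7-day group against control.

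Among 13 other class I genes the median was 0.05 in the 3-day group and 0.04 in the 7-day group. Tapbp, the tapasin gene, whose product holds class I molecules at TAP, had values of 9.48 and 9.50 in control. It had 9.62, 9.76, 9.76 and 9.71 on the 3-day arrays and 9.48, 9.60, 9.62 and 9.66 on the 7-day arrays. All 3-day arrays lay above both controls, with a log2 change of 0.22 ± 0.08 (SE) and a limma adjusted p of 0.439. Of all genes, 17.4% did not overlap in that comparison, in either direction. Tapbp has 2 probe sets with 1 symbol, and only the one with the higher mean is given here. H2-T24, a nonclassical class I gene, had 7.29 and 7.31 in control, 7.82, 8.51, 7.40 and 7.81 in the 3-day group, and 7.81, 7.99, 7.86 and 8.17 in the 7-day group. All 8 PUVA arrays lay above both controls, with log2 changes of 0.59 ± 0.23 and 0.66 ± 0.23 and adjusted p of 0.475 and 0.784. Class I genes of the H2 cluster are close copies of each other, so which of them a probe set reads is uncertain.

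Nlrc5, the class I coactivator, had log2 changes of 0.04 ± 0.13 and 0.10 ± 0.13 (SE) in the 3-day group and the 7-day group, and H2-K1, a classical class I heavy chain, had 0.05 ± 0.10 in both. The chaperone genes Calr and Pdia3 of the peptide-loading complex had -0.16 ± 0.08 and -0.13 ± 0.07 in the 7-day against the 3-day group. Calr had 0.15 ± 0.10 in the 3-day group against control, and H2-M3 0.12 ± 0.12 in the 7-day group.

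Other subunits of the immunoproteasome were measured as well. Psmb10, which replaces Psmb7, had log2 values of 7.62 and 7.55 in control, 7.76, 8.28, 7.77 and 8.00 on the 3-day arrays, and 7.67, 7.67, 7.65 and 7.71 on the 7-day arrays. The 3-day arrays lay above all others, with a log2 change of 0.37 ± 0.13 (SE) against control and -0.28 ± 0.11 for the 7-day against the 3-day group. The limma adjusted p values were 0.436 and 0.465. Psmb9, which replaces Psmb6, had 0.19 ± 0.12 and 0.12 ± 0.12 in the 3-day group and the 7-day group. Of the proteasome activator genes, Psme1 had 0.14 ± 0.08 in the 3-day group and Psme2 0.19 ± 0.12 in the 7-day group.

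Of the 13 measured genes of the constitutive core, 11 lay below 0 in the 3-day group and 12 in the 7-day group, with medians of -0.08 and -0.09. Psmb5, the subunit that Psmb8 replaces, had 7.69 and 7.84 in control and 7.48, 7.62, 7.39 and 7.62 on the 3-day arrays, all below the controls. Its log2 changes were -0.24 ± 0.10 (SE) in the 3-day group and -0.20 ± 0.10 in the 7-day group, with limma adjusted p of 0.489 and 0.884. Psmb6 and Psmb7 had -0.02 ± 0.08 and -0.04 ± 0.08 in the 3-day group, and Psmb3 had -0.24 ± 0.11. Psma1 had -0.15 ± 0.09 and -0.14 ± 0.09 in the 3-day group and the 7-day group, and Psmb1 -0.12 ± 0.08 in the 7-day group.

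Of 8 measured genes of interferon-gamma signalling, 6 lay above 0 in the 3-day group and 5 in the 7-day group, with medians of 0.07 and 0.05. Ifng, the cytokine itself, lay between 4.47 and 4.75 on all arrays, with 0.09 ± 0.09 (SE) in each PUVA group. These values were not far above the arrays' lower quartiles (4.17 to 4.23). Irf1, the transcription factor it induces, had 7.30 and 7.24 in control and 7.45, 7.52, 7.42 and 7.59 on the 3-day arrays, all above the controls. Its log2 change was 0.22 ± 0.10 with a limma adjusted p of 0.52, and in the 7-day group it was 0.08 ± 0.10. Irf8, a factor of myeloid cells, had 0.21 ± 0.20 in the 3-day group and -0.33 ± 0.16 in the 7-day against the 3-day group. Socs1, an inhibitor of the pathway, had -0.22 ± 0.11 in the 7-day group.

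Of 8 costimulation genes, Cd86, a ligand of CD28, had 6.52 and 6.51 in control and 6.91, 7.12, 6.58 and 6.98 on the 3-day arrays, with a log2 change of 0.38 ± 0.17 (SE) and a limma adjusted p of 0.505. Its 7-day arrays had 6.62, 6.57, 6.59 and 7.07, also above both controls, and the highest of them was again replicate 4. Cd80, the second ligand, had 0.41 ± 0.26 and Cd40 0.25 ± 0.16 in the 3-day group. Icosl had -0.29 ± 0.12 in the 7-day group against control and -0.29 ± 0.10 against the 3-day group, with adjusted p of 0.83 and 0.424. Cd83, a marker of mature dendritic cells, had 0.31 ± 0.28 in the 7-day group.

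Markers of the cells that carry class II were set beside the members, and none passed an adjusted p of 0.05 in limma in any comparison over the 10 arrays. Of 10 macrophage markers, 9 lay above 0 in the 3-day group against control, with a median log2 change of 0.53. At an unadjusted p under 0.05 in limma 5 of them were higher, where 5.67% of all genes were, and none was lower. Their mean was 8.98 to 9.13 on the controls, 9.21 to 10.15 on the 3-day arrays and 9.04 to 9.48 on the 7-day arrays. The 6 general leukocyte markers had a median of 0.44 in the 3-day group, and 3 of them were higher at that level. Both counts are from the fit with 2 controls and were smaller with either control left out. A fit with 1 control is less precise. The mean of the macrophage markers is given above, and that of the general leukocyte markers follows. The mean of the general leukocyte markers was 8.43 to 8.53 on the controls, 8.57 to 9.36 on the 3-day arrays and 8.40 to 8.78 on the 7-day arrays. The highest array of both lists was 3-day replicate 2, at 10.15 and 9.36, on which the class II mean, 8.70, lay between those of the other 3-day arrays.

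The 9 measured Langerhans and dendritic cell markers had a median log2 change of 0.10 in the 3-day group and -0.01 in the 7-day group. Their means were 7.01 to 7.08 on the controls, 6.93 to 7.30 on the 3-day arrays and 6.98 to 7.15 on the 7-day arrays, highest on replicate 4 of each PUVA group as for the class II genes. In the 7-day against the 3-day group 3 of the 9 were lower at an unadjusted p under 0.05 in limma and 0 higher. Of all genes 4.43% were lower, and 3 of the 10 macrophage markers were. The 3 were Xcr1 (-0.51 ± 0.14, SE), Zbtb46 (-0.18 ± 0.06) and Itgax (-0.24 ± 0.11). Zbtb46 was also higher in the 3-day group against control, the only 1 of the 9 at that level, where 5.67% of all genes were. Cd207, the langerin gene of Langerhans cells, had 8.64 and 8.37 in control and group means of 8.65 and 8.59 after PUVA. Over the 10 arrays the class II mean correlated with this list at 0.78 (Spearman 0.67, and 0.53 without 3-day and 7-day replicates 4). It correlated with the macrophage list at 0.22 (Spearman 0.45, and 0.05 without those arrays) and with the B cell list at -0.14 (Spearman -0.24, and 0.09). In the same order, the values were 0.37 (0.48, and 0.19) for the general leukocyte list and 0.57 (0.35, and -0.15) for the T cell list. They were 0.50 (0.72, and 0.61) for the fibroblast list and -0.39 (-0.49, and -0.47) for the keratinocyte list. The mean of 7 T cell markers was 6.23 to 6.63 over the arrays, and it too was highest on replicate 4 of each PUVA group, at 6.53 and 6.63. The mean of 7 B cell markers was 4.62 to 5.24. All 7 lay below 0 in the 3-day group against control, with a median log2 change of -0.31, and 2 were lower at an unadjusted p under 0.05, where 4.07% of all genes were. The part of these cells in the array-to-array variation of class II genes was not tested.

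**Figure D4:**
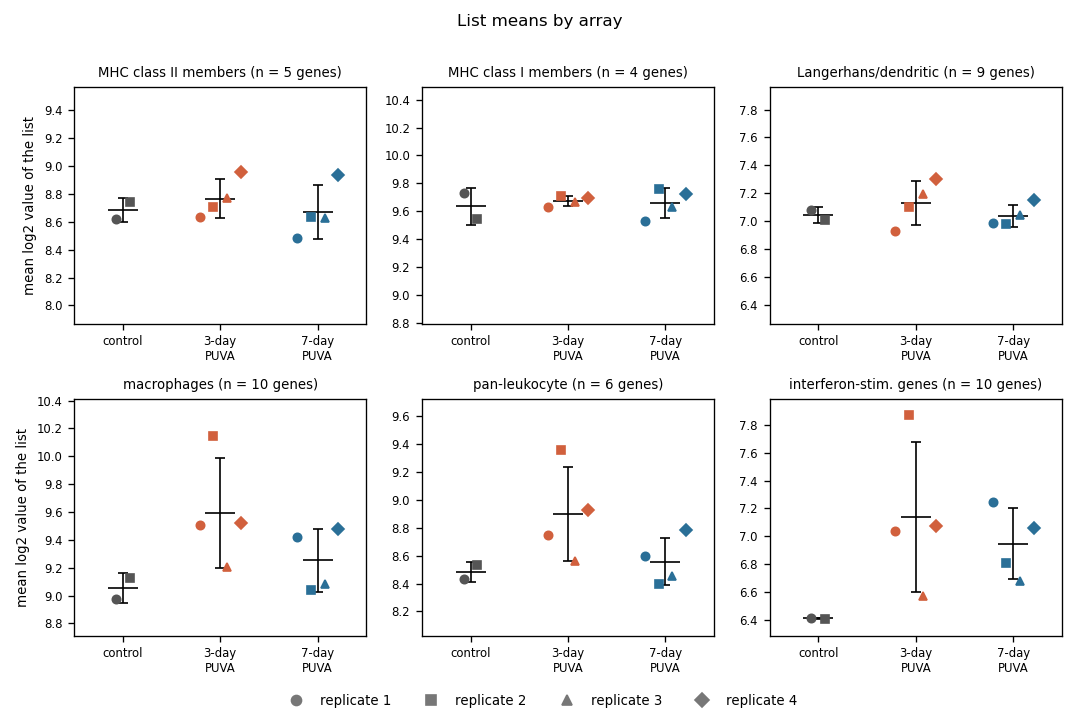
Mean log2 value of each list by array and group: the 5 class II and 4 class I members, Langerhans and dendritic cell, macrophage and general leukocyte markers, and 10 interferon-stimulated genes. Symbols mark replicates, bars the group mean and 1 SD, and each panel spans the same log2 range. The mean of the interferon-stimulated genes, a list chosen with its direction known, lies above both controls on all 8 PUVA arrays.

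A short list of genes induced by type I interferon (Irf7, Usp18, Isg15 and others, 10 measured of 12), chosen with its direction already known from these arrays, is set beside the members for scale. All 10 lay above 0 in both PUVA groups, with median log2 changes of 0.78 and 0.63. Their mean was 6.41 on both controls, 6.57 to 7.87 on the 3-day and 6.68 to 7.25 on the 7-day arrays. The members' medians were 0.06 and 0.0091 on the same arrays. On 3-day replicate 2, where the interferon-stimulated mean was highest, B2m, Tap1 and Psmb8 also had their group's highest values, at 12.85, 10.13 and 8.30. Tap2, at 7.55, did not. The 7-day group went the other way. On 7-day replicate 1 its interferon-stimulated mean was highest, at 7.25, and its class I mean lowest, at 9.53. The class I mean correlated with the interferon-stimulated list at 0.11 (Spearman 0.02) over the 10 arrays, and the class II mean at 0.03 (Spearman 0.07). Whether the 2 sets of genes differ in response was not tested.

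The lists were also refitted without each control, an alternative chosen after seeing the data, and none of the 61 pathway genes passed in limma. In the 3-day group against control, without control replicate 1 and then without control replicate 2, H2-T24 had log2 changes of 0.58 and 0.60, Tapbp 0.22 and 0.23, and Cd86 0.38 and 0.37. Psmb10 had 0.40 and 0.34, Irf1 0.25 and 0.20, and Psmb5 -0.32 and -0.16. The DM beta chains depended on the control, with 0.09 and 0.74 for H2-DMb1 and 0.22 and 0.53 for H2-DMb2. H2-T24 had 0.65 and 0.67 in the 7-day group.

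List medians in the 3-day group were, in the same order, 0.51 and 0.58 for macrophage markers, 0.39 and 0.48 for general leukocyte markers, 0.18 and 0.05 for Langerhans and dendritic cell markers and 0.77 and 0.78 for the interferon-stimulated genes. B cell markers had -0.44 and -0.03, and T cell markers 0.15 and -0.07. The 7-day medians changed sign for the other class II genes (-0.01 and 0.07), Langerhans and dendritic cell markers (0.04 and -0.04), costimulation genes (0.13 and -0.0079), B cell markers (-0.25 and 0.02), T cell markers (0.28 and -0.04), fibroblast markers (-0.31 and 0.33) and keratinocyte markers (0.07 and -0.03). Without control replicate 1, Ms4a1, the CD20 gene of B cells, passed as lower in the 3-day group and the 7-day group, with adjusted p of 0.0342 and 0.0241 in limma. Its values were 4.10 and 5.08 in control and 3.86 to 4.31 on the PUVA arrays, so this call rests on control replicate 2. All but that value lay about the arrays' lower quartiles (4.17 to 4.23).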

How the data were processed

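The authors deposited a table of 41345 probe sets by array, whose values were taken as log2 from their range, with array medians of 5.83 to 5.86. How the authors normalized them is not given in the sources used here. Per the labels' protocols, DNase-treated RNA was labelled with an Affymetrix WT PLUS kit. No batch or scan date was given. Gene symbols came from the platform annotation (23521 with 1 symbol, 1814 with several, 16010 with none listed). For genes with several probe sets the one with the highest mean was used. The test was limma 3.58.1 (R 4.3.3; moderated, two-sided), with a mean for each group over the 10 arrays (7 residual and 3.514 prior degrees of freedom), with no filter on dim signals and Benjamini-Hochberg adjustment over 22180 genes. Members and lists were chosen with earlier results of these data known. Named were all members, a fixed set of pathway genes, up to 3 genes with the smallest p per pathway list and comparison, and 5 genes by likeness to the class II and class I means, without gene models and small RNAs. Cd74 was to enter the class II mean and could not. On simulated data with 200 changed genes of 22180, the 3-day comparison with control recovered 81% at a log2 change of 1, and the comparison of the PUVA groups 89%. Changes as small as those of the members were not simulated, nor were genes that vary together or controls that differ. These shares therefore do not say how often changes of the members' size would be found. Signal over background and the match of probes to the MHC alleles of BALB/c were not tested.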

Additional observations from a re-analysis of the deposited data

Results flagged for a closer look

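In 3 cases 1 array of a PUVA group lay far from the other 3, with a gap above Dixon's 95% limit for 4 values. Chance flags about 1 in 20 groups, and 82 were looked at. H2-DMa was 8.25 on 3-day replicate 4, against 8.03 to 8.07 on the other 3-day arrays. Cd86 was 7.07 on 7-day replicate 4, against 6.57 to 6.62 on the others. Jak1, a kinase of interferon receptors, was 10.81 on 7-day replicate 1, against 10.66 to 10.68.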

How the results depend on the processing

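None of the 9 genes passed an adjusted p of 0.05 in limma under any alternative: without the lowest 30% of genes, with the mean of a gene's probe sets, quantile normalization, median centring, trend and robust variance, array weights, only the groups compared, or each array left out. None passed a threshold of 0.1. The lowest adjusted p of a member in these was 0.409. Of 459 log2 changes so recomputed, 426 kept their direction and 33 changed it, 32 of them when 1 array was left out, since the values are near 0. Many of the 426 could not have changed, so their number does not show stability. The filter, the variance settings and fitting only the groups compared leave a difference of group means as it is. So do averaging probe sets, as each member has 1, and leaving out an array of the group not compared. With array weights H2-Eb1 turned to 0.046 in the 3-day group against control. When single arrays were left out, the log2 changes that turned ran as follows. In the 3-day group against control they ran from -0.013 to 0.085 for B2m, -0.0074 to 0.12 for H2-Aa, -0.017 to 0.14 for H2-Ab1, -0.12 to 0.061 for H2-Eb1, -0.017 to 0.19 for Psmb8, -0.095 to 0.12 for Tap1 and -0.093 to 0.14 for Tap2. In the 7-day group against control they ran from -0.040 to 0.058 for B2m, -0.080 to 0.071 for H2-DMa, -0.14 to 0.052 for H2-Eb1, -0.031 to 0.17 for Psmb8, -0.14 to 0.074 for Tap1 and -0.066 to 0.17 for Tap2. In the 7-day against the 3-day group they ran from -0.15 to 0.072 for Ciita, -0.11 to 0.083 for H2-Eb1, -0.081 to 0.040 for Psmb8 and -0.017 to 0.096 for Tap2.

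Over all genes, 1 passed in the 3-day group against control (3 with array weights, 16 at a threshold of 0.1), 0 in the 7-day group, with 1307 at an unadjusted p under 0.05, and 2 in the direct comparison (1 without the lowest 30% of genes or with only the groups compared, 6 with array weights or at 0.1). Leaving out single arrays gave 1 to 182, 0 to 217 and 0 to 10. In the 3-day comparison 2 passed without control replicate 2 or without replicate 4 of either PUVA group, 6 without 3-day replicate 2 and 4 without 3-day replicate 3. In the 7-day comparison 1 passed without control replicate 2. In the direct comparison 10, 5 and 6 passed without 3-day replicates 1, 2 and 3, 0 without 3-day replicate 4 or 7-day replicate 1, and 1 without either control or 7-day replicates 2 or 3. The 182 and 217 came without control replicate 1, where the fit takes the spread of the 1 remaining control to be that of the PUVA groups. The cause was not tested. No paired analysis was possible because the labels give no replicate numbers shared between groups. The number of arrays limits the precision, and signal over background was not analysed here.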
